A study of Mus musculus with 16 samples.

Results

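The Krüppel-like factor genes described here are Klf2, Klf3, Klf4, Klf6, Klf7, Klf10, Klf12 and Klf13, 8 of the 20267 genes that were quantified in sorted mouse microglia. They were taken by gene symbol from the gene table, and their 26 transcripts were taken from the 61144 in the transcript table. All 8 passed the filter on low values (at least 1 CPM, a read count scaled to library size, in at least 4 of the 16 libraries), Klf4 with 6 libraries at or above that level. Klf7 was chosen by its levels in these same libraries, in AD p38KO against AD p38+/+ and in AD against WT mice, so its values in those comparisons are given as a description and without a p-value. Klf7 averaged 38.9 ± 10.5 CPM in AD p38KO, 27.1 ± 0.75 CPM in AD p38+/+, 35.1 ± 2.37 CPM in WT p38KO and 47.4 ± 7.65 CPM in WT p38+/+ microglia (SD, n = 4 mice each). No member passed the test in any comparison in which it was tested.

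Krüppel-like factors are transcription factors that bind GC-rich and CACCC sequences in promoters through 3 zinc fingers at the end of the protein. The rest of the protein differs between members and sets what they recruit: KLF2, KLF4, KLF6 and KLF7 are mostly activators, KLF3 and KLF12 are repressors that bind CtBP, and KLF10 and KLF13 carry a domain that binds the SIN3A corepressor. In myeloid cells KLF2 and KLF4 are known for restraining or shaping inflammatory gene expression, and KLF6 for promoting it.

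RNA was sequenced from live CD11b+ P2ry12+ cells sorted from brain tissue of single mice, with 4 mice in each of 4 groups. AD p38KO mice were APPswe/PS1dE9+/-, p38fl/fl, Cx3cr1-creERT2+/-, AD p38+/+ mice were APPswe/PS1dE9+/-, p38fl/fl, Cx3cr1-creERT2-/-, WT p38KO mice were APPswe/PS1dE9-/-, p38fl/fl, Cx3cr1-creERT2+/-, and WT p38+/+ mice were APPswe/PS1dE9-/-, p38fl/fl, Cx3cr1-creERT2-/-. All mice were C57BL/6J and carried the floxed p38α gene (Mapk14). They ate tamoxifen (400 ppm) for 4 weeks from 5 months of age and were collected at about 11 months. By the labels 11 were male and 5 female, the females being mouse 1 of each group and WT p38KO mouse 2. The Cre gene sits at Cx3cr1 and was present only in p38KO mice, so loss of p38α and presence of the Cre allele cannot be told apart. The libraries were those with the best RNA integrity in each group. The Mapk14 transcript ENSMUST00000062694 was at 0.0575 to 0.248 CPM in AD p38KO, 58.5 to 71.0 CPM in AD p38+/+, 0.0590 to 0.214 CPM in WT p38KO and 47.1 to 82.6 CPM in WT p38+/+ libraries, as the labels state. Each library held 12.2 to 16.4 reads per CPM, so that 3 reads stood for 0.183 to 0.245 CPM. The 6 microglia markers summed to 49303 to 62026 CPM. Of 6 measured endothelial genes, which matter here because Klf2 and Klf4 are abundant in vessels, 4 averaged under 0.5 CPM and the sum was 16.8 to 46.3 CPM, of which Pecam1 alone reached 45.5 CPM. Libraries 1 and 4 of AD p38KO stood apart, with a mean Spearman correlation of 0.948 and 0.928 with the other libraries over the genes tested, against 0.957 to 0.970 for the rest, and AD p38KO was the group with the fewest detected genes (15485 at the lowest, against at least 16987 in the other groups). In sorted bulk RNA, fewer cells carrying a transcript and less of it per cell cannot be told apart.

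The promoters of Klf7 and Klf3 are shown because these were the members with no overlap between AD p38+/+ and WT p38+/+ mice, and that of Klf6 because it is the abundant member whose groups all overlapped. Each run is the 250 bases before and 50 bases after the RefSeq start on GRCm38.p6, on the gene's own strand, with CACCC (or GGGTG, the same motif on the other strand) and GGGCGG (or CCGCCC) in capitals.
Klf7 promoter: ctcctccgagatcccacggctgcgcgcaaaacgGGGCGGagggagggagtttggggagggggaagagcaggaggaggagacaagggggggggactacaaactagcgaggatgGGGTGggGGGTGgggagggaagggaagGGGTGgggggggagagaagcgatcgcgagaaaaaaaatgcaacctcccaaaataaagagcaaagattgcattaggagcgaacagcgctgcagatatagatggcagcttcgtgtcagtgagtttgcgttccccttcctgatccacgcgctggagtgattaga
Klf3 promoter: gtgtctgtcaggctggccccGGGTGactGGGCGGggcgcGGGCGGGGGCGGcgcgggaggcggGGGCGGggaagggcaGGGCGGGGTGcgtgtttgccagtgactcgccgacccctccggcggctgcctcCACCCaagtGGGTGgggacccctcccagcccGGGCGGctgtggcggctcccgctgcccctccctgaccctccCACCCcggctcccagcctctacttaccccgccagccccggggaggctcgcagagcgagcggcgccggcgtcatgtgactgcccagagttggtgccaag
Klf6 promoter: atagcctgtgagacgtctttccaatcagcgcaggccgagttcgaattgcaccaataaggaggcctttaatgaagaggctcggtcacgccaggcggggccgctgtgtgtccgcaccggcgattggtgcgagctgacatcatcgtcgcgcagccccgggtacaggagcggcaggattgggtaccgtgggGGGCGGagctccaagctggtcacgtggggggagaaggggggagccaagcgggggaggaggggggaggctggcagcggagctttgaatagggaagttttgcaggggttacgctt
These windows lie at chr1:64121340-64121639 on the minus strand for Klf7, chr5:64803271-64803570 on the plus strand for Klf3 and chr13:5861239-5861538 on the plus strand for Klf6. The Klf7 window held 3 CACCC and 1 GGGCGG, the Klf3 window 5 and 6, some of them sharing bases, and the Klf6 window 0 and 1. Klf6 differed by 4 CCAAT boxes (CCAAT or ATTGG), which the Klf7 and Klf3 windows lacked. CACCC was present in 57.5%, GGGCGG in 35.7% and CCAAT in 37.4% of 32851 RefSeq promoter windows of the same length. GC content was 58.3% for Klf7, 76.7% for Klf3 and 63.0% for Klf6, against a median of 52.7% over all windows. Promoters were found for 7 of the 8 members; a motif match is a match of letters and was not tested as a site.

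Per kilobase of transcript, the members fell into an abundant pair, a middle group and Klf4 near the floor. Over the 16 libraries Klf3 averaged 137 ± 15.9 CPM per kb and Klf6 98.6 ± 12.2 CPM per kb (SD), with Klf3 the higher in 16 of 16 libraries although the 2 ranges overlapped. Klf13 (15.9 CPM per kb), Klf7 (11.5), Klf10 (8.35), Klf12 (8.08) and Klf2 (5.55) followed. Neighbours in this middle group overlapped in range, and Klf13 was above Klf7 in 12, Klf7 above Klf10 in 10, Klf10 above Klf12 in 9 and Klf12 above Klf2 in 14 of 16 libraries. Klf4 averaged 0.238 CPM per kb and lay below Klf2 in all 16. Each transcript's CPM was divided by its own length before summing, so short transcripts weigh more here than in CPM. Klf13-204 has 487 bases at a mean of 5.65 CPM, beside 6396 bases and 23.2 CPM for Klf13-201. Klf6-202, a retained-intron transcript, has 799 bases at 34.8 CPM, beside 4225 bases and 231 CPM for Klf6-201. The order of members without such transcripts was not computed.

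**Figure D1:**
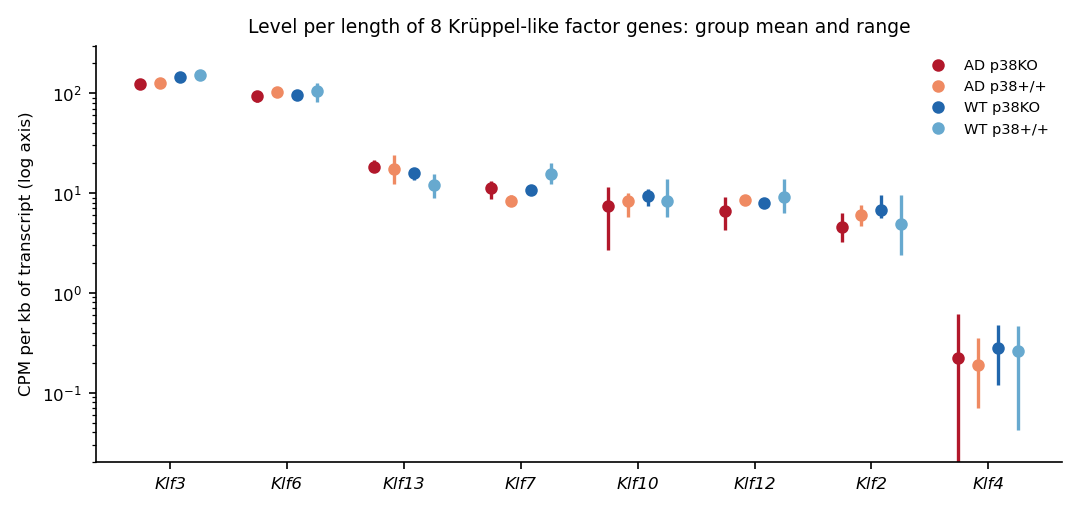
Level of each member in CPM per kilobase of transcript on a log axis, with points for group means and lines from the lowest to the highest of 4 mice. Klf3 and Klf6 stand highest and Klf4 lowest; the Klf4 line of AD p38KO runs off the axis because 1 library is listed at 0.

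Klf7 encodes a widely expressed activator known for its part in axon growth of neurons and in blood and fat cell development. The gene lies on mouse chromosome 1 from 64029447 to 64122282 on the minus strand (GRCm38). Its level was 41.1, 26.2, 36.7 and 51.6 CPM in AD p38KO mice 1 to 4, against 27.8, 27.2, 26.0 and 27.2 CPM in AD p38+/+ mice. Of the AD p38KO mice, 3 were above every AD p38+/+ mouse and 1 lay among them, so the groups overlapped. In WT p38KO mice Klf7 was at 34.7, 33.4, 33.7 and 38.5 CPM, against 40.4, 58.1, 46.9 and 44.0 CPM in WT p38+/+ mice. Here every p38KO mouse was below every p38+/+ mouse. The spread also differed, with a coefficient of variation of 27.1% in AD p38KO, 2.78% in AD p38+/+, 6.74% in WT p38KO and 16.1% in WT p38+/+ libraries.

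On the log2(CPM + 0.5) scale, the Klf7 difference was 0.47 (SE 0.17) in AD p38KO against AD p38+/+ and -0.78 (SE 0.17) in AD p38+/+ against WT p38+/+ mice. Both belong to the contrasts that put the gene on the list. In AD p38KO against WT p38KO mice the difference was 0.11 (SE 0.17), and the p38KO difference was 0.89 (SE 0.24) larger in AD than in WT mice. WT p38KO against WT p38+/+ was not a contrast that chose the gene, although it shares the WT p38+/+ mice with one that did. There the difference was -0.42 (95% CI -0.78 to -0.05), lower in 4 of 4 WT p38KO mice, with an unadjusted p of 0.0267 and a limma adjusted p of 1 over all genes tested, and it did not pass.

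The AD p38KO values of Klf7 depended on the mice that stood apart. Mice 1 and 4 averaged 46.3 CPM and mice 2 and 3 averaged 31.4 CPM. Without mice 1 and 4 the difference from AD p38+/+ was 0.19, that from WT p38KO turned to -0.17, and the difference between the p38KO effects was 0.61. For the members other than Klf7 and Klf12, leaving out this pair moved no difference by more than the residual SD, which was wide for Klf4. Some still shifted: in AD p38KO against AD p38+/+ mice Klf4 went from -0.04 to 0.56 and Klf2 from -0.37 to -0.08. Against WT p38KO mice Klf4 in AD p38KO mice went from -0.36 to 0.24. What sets these libraries apart was not tested.

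**Figure D2:**
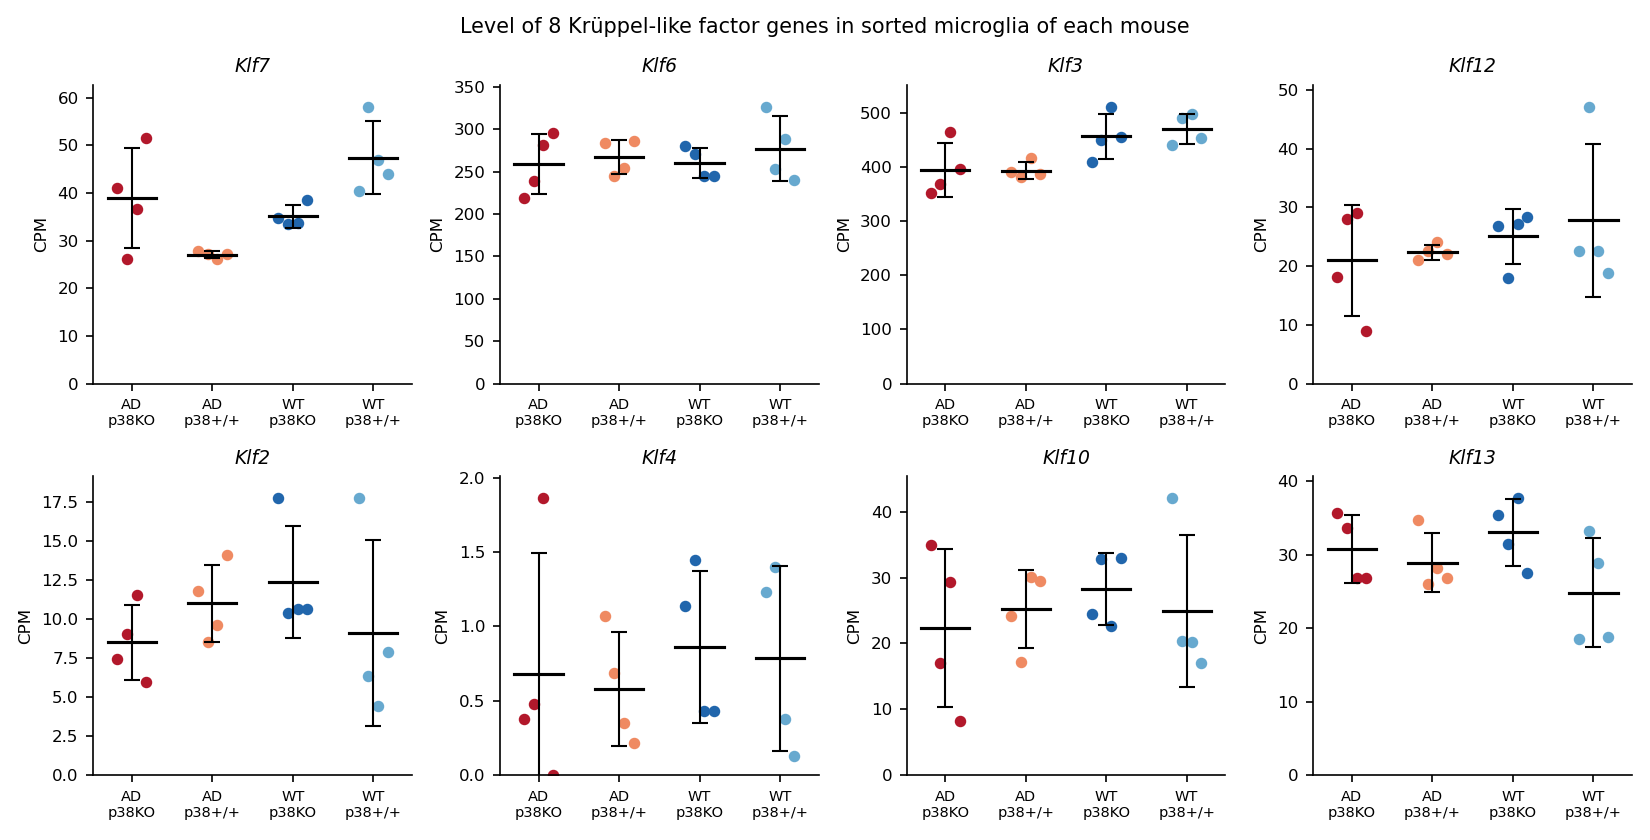
Level in CPM of the 8 members in each mouse, by group, with a bar at the mean and whiskers of 1 SD (n = 4 mice each). Klf7 is low and tight in AD p38+/+ mice, Klf3 is lower in AD p38+/+ than in WT p38+/+ mice without overlap, and in the other 6 panels the points of the groups overlap; the lower whisker of Klf4 in AD p38KO is cut off at 0.

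A pair of protein-coding transcripts made up nearly all of Klf7. Klf7-202 (4 exons, 7662 bases, 903 of them coding) carried 69.0% and Klf7-201 (4 exons, 1477 bases, 855 coding) 30.2% of the gene's CPM. Both start inside the window printed above. CPM is not divided by length: Klf7-202 averaged 25.6 CPM over 7662 bases and Klf7-201 11.2 CPM over 1477 bases. Per kilobase of transcript Klf7-201 was thus the higher, so the shares of CPM do not give their order by abundance. Klf7-202 was at 29.2, 17.4, 25.1 and 40.0 CPM in AD p38KO, against 19.9, 17.0, 18.5 and 19.6 CPM in AD p38+/+ mice. In WT p38KO it was at 21.9, 22.7, 24.1 and 30.0 CPM, against 26.0, 37.1, 28.7 and 32.5 CPM in WT p38+/+ mice. The longer transcript thus overlapped between p38KO and p38+/+ mice on both backgrounds, and it did not overlap between AD p38+/+ and WT p38+/+ mice.

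Klf7-201 was at 11.9, 8.27, 11.1 and 11.6 CPM in AD p38KO, against 7.89, 9.86, 6.93 and 7.62 CPM in AD p38+/+ mice. It was at 12.6, 10.3, 8.98 and 8.53 CPM in WT p38KO, against 14.1, 20.4, 18.2 and 11.1 CPM in WT p38+/+ mice. Both transcripts had the same order of group means as the gene at its ends, highest in WT p38+/+ and lowest in AD p38+/+. In WT p38KO against WT p38+/+ the log2 difference was -0.61 (SE 0.23, limma adjusted p = 1) for Klf7-201 and -0.33 (SE 0.21, limma adjusted p = 1) for Klf7-202. The share of Klf7-202 was 70.9% ± 4.83 in AD p38KO, 69.3% ± 4.59 in AD p38+/+, 70.1% ± 6.22 in WT p38KO and 65.8% ± 5.65 in WT p38+/+ mice (SD, n = 4 each). Among 24 comparisons of such shares over 6 members, none passed (two-sided exact permutation tests, smallest p = 0.0571, 0.457 after Benjamini-Hochberg adjustment).

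**Figure D3:**
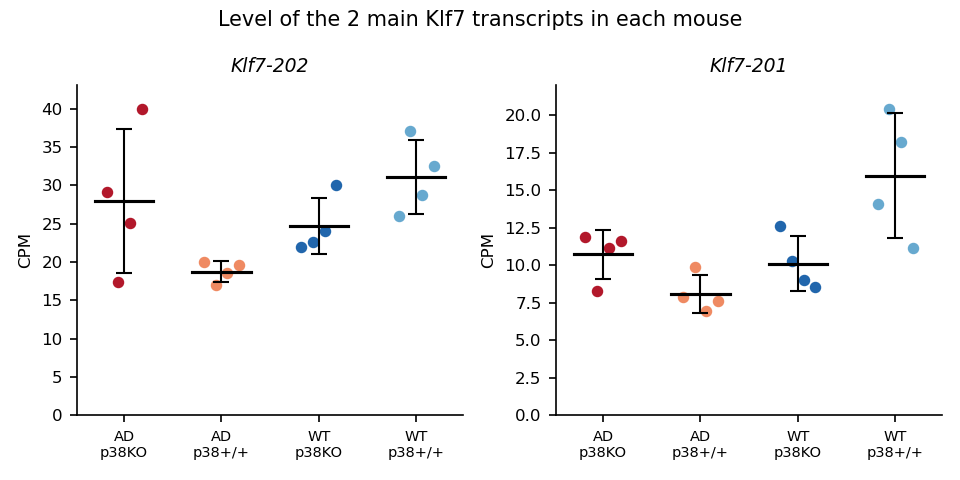
Level in CPM of Klf7-202 and Klf7-201 in each mouse, by group, with a bar at the mean and whiskers of 1 SD (n = 4 mice each). For both transcripts the AD p38+/+ points lie below all WT p38+/+ points, and 3 of the 4 AD p38KO points of each lie above the highest AD p38+/+ point.

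Among the other activators, Klf6, a stress-responsive factor that promotes inflammatory genes in macrophages, was abundant and flat. It averaged 259 ± 35.5 CPM in AD p38KO, 267 ± 20.6 CPM in AD p38+/+, 260.4 ± 17.9 CPM in WT p38KO and 277 ± 38.7 CPM in WT p38+/+ mice (SD, n = 4 each). Its log2 differences lay between -0.08 and -0.02 in the 4 comparisons of single groups. The interval for AD p38KO against AD p38+/+ was -0.29 to 0.19 and that for AD p38+/+ against WT p38+/+ was -0.29 to 0.19 as well. One coding transcript, Klf6-201, held 86.7% of the gene's CPM, and a retained-intron transcript, Klf6-202, 13.1%.

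Klf2, which keeps endothelial cells and T cells quiescent, was about 10 CPM and scattered. It was at 7.44, 9.07, 11.6 and 5.96 CPM in AD p38KO, against 11.8, 8.55, 9.64 and 14.1 CPM in AD p38+/+ mice. In WT p38KO it was at 17.7, 10.4, 10.6 and 10.7 CPM, against 17.8, 6.33, 4.40 and 7.90 CPM in WT p38+/+ mice. Mouse 1 of each WT group, labelled female, was the highest, while WT p38KO mouse 2, also labelled female, was the lowest of its group. Mouse 1 was not the highest in either AD group, and the groups overlapped. The log2 difference was -0.37 (95% CI -1.08 to 0.34) in AD p38KO against AD p38+/+ and 0.57 (95% CI -0.14 to 1.28) in WT p38KO against WT p38+/+, neither passing. The difference between those effects was -0.94 (95% CI -1.94 to 0.07, limma adjusted p = 1.00).

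Klf4, a factor of monocyte differentiation and of pluripotency, was barely detected. It averaged 0.679 ± 0.816 CPM in AD p38KO, 0.581 ± 0.383 CPM in AD p38+/+, 0.861 ± 0.513 CPM in WT p38KO and 0.785 ± 0.625 CPM in WT p38+/+ mice (SD, n = 4 each). In 3 of 16 libraries it was under the level of 3 reads, and 1 AD p38KO library was listed at 0. Its interval for AD p38KO against AD p38+/+ ran from -1.09 to 1.01 on the log2 scale, so changes of that size were not detectable at this depth.

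Klf3, the basic Krüppel-like factor that represses through CtBP, was the most abundant member. It lies on chromosome 5 from 64803388 to 64832901 on the plus strand. Its level was 350.7, 368, 464 and 397 CPM in AD p38KO, against 409, 449.6, 511 and 455 CPM in WT p38KO mice. Of the 4 AD p38KO mice, 3 were below every WT p38KO mouse. It was at 389.7, 380.4, 416 and 386 CPM in AD p38+/+, against 441, 489.7, 497 and 453 CPM in WT p38+/+ mice, with no overlap.

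The log2 difference of Klf3 was -0.26 (95% CI -0.45 to -0.06, limma adjusted p = 0.498) in AD p38+/+ against WT p38+/+ and -0.21 (95% CI -0.41 to -0.02, limma adjusted p = 0.481) in AD p38KO against WT p38KO mice. Over both p38 genotypes it was -0.23 (95% CI -0.37 to -0.10, unadjusted p = 0.00238), and with a limma adjusted p of 0.129 it did not pass. Leaving out AD p38KO mouse 3, the highest AD library for Klf3, gave -0.27 with an adjusted p of 0.0374; over all alternatives the adjusted p ran from 0.0374 to 0.301. The p38KO differences were near 0, at -0.00 (95% CI -0.20 to 0.20) in AD and -0.05 (95% CI -0.24 to 0.15) in WT mice. Among annotated genes that overlap Klf3, C230096K16Rik on the same strand was at 13.0 to 30.7 CPM and Gm20033 on the opposite strand at 1.40 to 3.43 CPM.

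Klf3 was spread over more transcripts than any other member, with 5 of 8 averaging at least 1 CPM. Klf3-201 (6 exons, 1032 coding bases) held 62.7% of the gene's CPM, and Klf3-202 has the same coding length. The retained-intron transcripts Klf3-203 and Klf3-208 held 17.6% and 9.46%. In AD against WT mice over both p38 genotypes the log2 difference was -0.22 (SE 0.08) for Klf3-201, -0.28 (SE 0.11) for Klf3-202 and -0.26 (SE 0.11) for Klf3-203, with limma adjusted p-values of 0.400, 0.451 and 0.471.

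Klf12, first described as a repressor of the AP-2α gene, also binds CtBP. It was at 18.1, 28.0, 29.0 and 8.87 CPM in AD p38KO, against 21.0, 22.5, 24.1 and 22.0 CPM in AD p38+/+ mice. In WT p38KO it was at 26.8, 18.1, 27.2 and 28.3 CPM, against 22.5, 47.2, 22.5 and 18.8 CPM in WT p38+/+ mice. Single mice set these spreads: AD p38KO mouse 4 and WT p38KO mouse 2 were low and WT p38+/+ mouse 2 was high. The log2 difference in AD p38KO against AD p38+/+ was -0.22 (95% CI -0.90 to 0.45) with all mice and 0.34 without AD p38KO mice 1 and 4. Those 2 mice averaged 13.5 CPM and the other AD p38KO mice 28.5 CPM, so their order was the reverse of that for Klf7. In AD p38KO against WT p38KO mice the difference likewise turned, at -0.36 with all mice and 0.20 without the pair.

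Klf10 and Klf13 belong to the SIN3A-binding repressors. Klf10, an early gene induced by TGF-β, averaged 22.4 ± 12.1 CPM in AD p38KO, 25.2 ± 5.96 CPM in AD p38+/+, 28.2 ± 5.47 CPM in WT p38KO and 24.9 ± 11.5 CPM in WT p38+/+ mice (SD, n = 4 each). Its lowest library was AD p38KO mouse 4 at 8.19 CPM and its highest WT p38+/+ mouse 1 at 42.1 CPM, and all groups overlapped. The log2 difference was -0.33 (95% CI -1.09 to 0.43) in AD p38KO against AD p38+/+ and 0.25 (95% CI -0.51 to 1.01) in WT p38KO against WT p38+/+ mice.

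Klf13, known in human T cells for driving late expression of the chemokine gene Ccl5, was at 35.7, 33.7, 26.9 and 26.9 CPM in AD p38KO, against 34.7, 26.0, 28.1 and 26.9 CPM in AD p38+/+ mice. In WT p38KO it was at 35.5, 31.5, 37.7 and 27.4 CPM, against 18.5, 33.2, 28.9 and 18.8 CPM in WT p38+/+ mice. WT p38+/+ mice 1 and 4 were lower than all other libraries. The log2 difference was 0.44 (95% CI 0.03 to 0.85, unadjusted p = 0.0369, limma adjusted p = 1) in WT p38KO against WT p38+/+ and 0.09 (95% CI -0.32 to 0.50) in AD p38KO against AD p38+/+ mice. Markers of border macrophages, a list of 4 genes (Mrc1, Cd163, Lyve1 and Pf4), had 4 of 4 positive differences in the same WT comparison. Of the 8 members 4 were positive in it and 4 negative. The markers had a median of 0.77 beside 0.02 over all genes. Their sum was 14.7 to 45.2 CPM in AD p38KO, 15.2 to 82.0 CPM in AD p38+/+, 26.7 to 70.6 CPM in WT p38KO and 7.78 to 46.8 CPM in WT p38+/+ mice, with no gene passing. For the difference between the p38KO effects 4 of 4 markers were negative, with a median of -0.93 beside -0.06. Of the 8 members 5 were negative there and 3 positive. The negative ones were Klf2 (-0.94), Klf10 (-0.58), Klf13 (-0.35), Klf4 (-0.19) and Klf12 (-0.16). The positive ones were Klf3 (0.04), Klf6 (0.03) and Klf7 (0.89), which this contrast chose. Oligodendrocyte markers (3 tested) had medians of 0.38 in the WT comparison and -0.43 for the difference between the effects. Astrocyte markers (4 tested) had -0.02 and 0.19. The part of border macrophages or other cells in the members' values was not tested. The short Klf13 transcript Klf13-204, with 19.2% of the gene's CPM, averaged 6.73 ± 1.02 CPM in AD p38KO against 5.35 ± 0.79 CPM in WT p38KO mice (SD, 4 mice each). The log2 difference was 0.31 (SE 0.29, limma adjusted p = 0.831).

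Klf7 and its transcripts are left out of these counts where the contrast chose the gene. With limma over 13912 genes, 0 of the other 7 members passed an adjusted p of 0.05 in AD p38KO against AD p38+/+, where 0.0503% of all genes did. In WT p38KO against WT p38+/+ it was 0 of 8, where 0.00719% did. In AD p38+/+ against WT p38+/+ mice it was 0 of 7 against 0.359%, and in AD p38KO against WT p38KO 0 of 7 against 0.323%. Over both backgrounds or genotypes, the count was 0 of 7 against 0.0791% for p38KO and 0 of 7 against 1.03% for AD. For the difference between the p38KO effects it was 0 of 7 against 0%. Of the members' 26 transcripts, 19 were tested, or 17 where those of Klf7 are left out. Of these 0 passed in any comparison, where 0.032% of all transcripts did in AD p38KO against AD p38+/+, 0.0146% in WT p38KO against WT p38+/+, 0.122% in AD p38+/+ against WT p38+/+ and 0.0728% in AD p38KO against WT p38KO. Over both backgrounds or genotypes the transcript background was 0.166% for p38KO and 0.379% for AD, and it was 0% for the difference between the effects. At these rates a count of 0 among 7 or 8 genes carries little information.

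At an unadjusted p under 0.05, Klf7 is counted only in WT p38KO against WT p38+/+, the contrast that did not choose it. That contrast shares the WT p38+/+ mice with one that did, so the counts of Klf7 and its transcript there are not free of the choice. There 2 of 8 members were under it (Klf7 and Klf13, background 3.53%). Of the other 7 members, 0 were in AD p38KO against AD p38+/+ (background 6.99%), 1 in AD p38+/+ against WT p38+/+ (Klf3, background 7.11%) and 1 in AD p38KO against WT p38KO (Klf3, background 9.56%). Over both p38 genotypes AD had 1 of 7 (Klf3, background 12%), p38KO over both backgrounds 0 of 7 (background 5.9%) and the difference between the p38KO effects 0 of 7 (background 3.92%). Counted in the same way, 1 of 19 transcripts was under 0.05 in WT p38KO against WT p38+/+ (Klf7-201, background 4.27%). Of the 17 transcripts of the other members, 0 were in AD p38KO against AD p38+/+ (background 7.75%), 1 in AD p38+/+ against WT p38+/+ (Klf3-201, background 5.36%) and 0 in AD p38KO against WT p38KO (background 8.57%). AD over both p38 genotypes had 4 of 17 (Klf3-201, Klf3-202, Klf3-203 and Klf13-204, background 9.13%), p38KO over both backgrounds 0 (background 7.39%) and the difference between the p38KO effects 0 (background 4.26%). Nothing is read from Klf7 where the contrast chose it.

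In WT p38KO against WT p38+/+ 1 member lay wholly below (Klf7, background 1.32%) and 0 wholly above (background 1.4%). Through the shared WT p38+/+ mice this count is not free of the choice of Klf7 either. In AD p38+/+ against WT p38+/+ 1 of the other 7 members lay wholly below (Klf3, background 1.87%) and 0 above (background 3.36%). Klf7 also lay wholly below there, but it is not counted because this contrast chose it. In AD p38KO against AD p38+/+ there were 0 above (background 1.32%) and 0 below (background 2.02%), and in AD p38KO against WT p38KO 0 above (background 2.6%) and 0 below (background 2.33%). The median log2 difference over the members was -0.05 in AD p38KO against AD p38+/+, beside -0.02 over all genes, and 0.05 in WT p38KO against WT p38+/+, beside 0.02. In AD p38+/+ against WT p38+/+ it was -0.11 beside -0.01, and in AD p38KO against WT p38KO -0.29 beside -0.04. These medians include Klf7, so they are not free of its choice where the contrast chose it. Among the other members the middle value in AD p38+/+ against WT p38+/+ was that of Klf6, at -0.05. In AD p38KO against WT p38KO it was that of Klf4, at -0.36. In AD p38KO against AD p38+/+ it was that of Klf6, at -0.05.

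**Figure D4:**
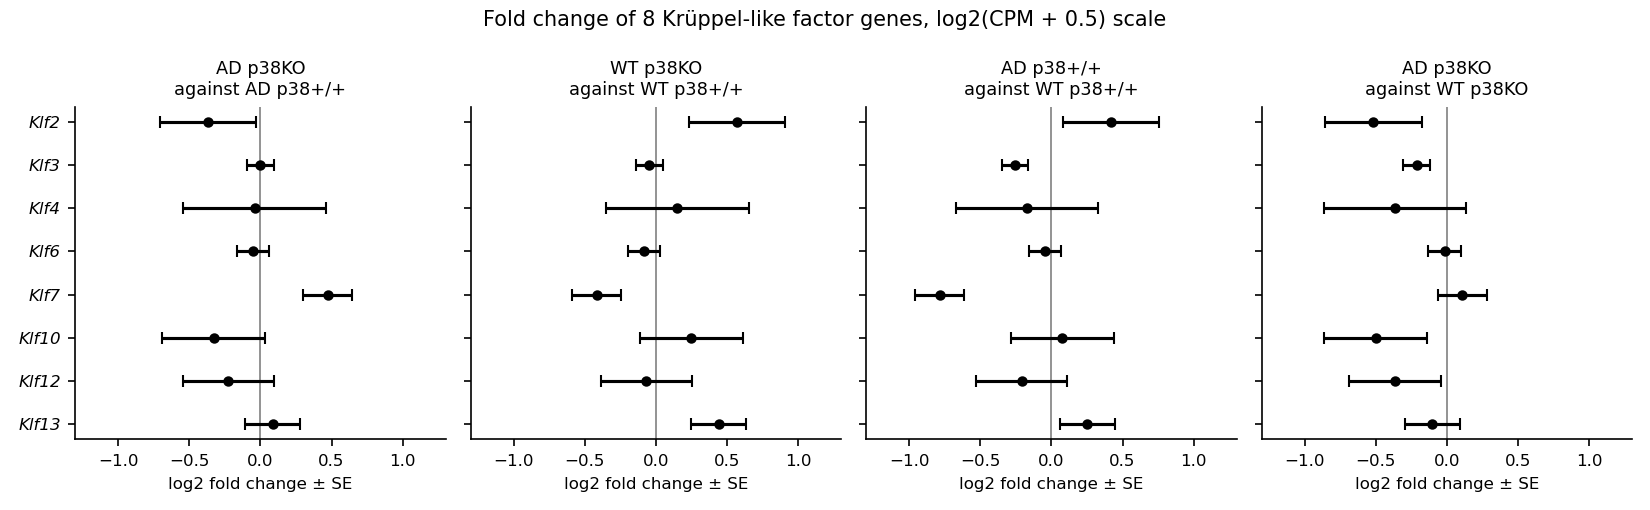
Log2 difference of each member in 4 comparisons, on the log2(CPM + 0.5) scale, with bars of 1 SE from limma. The Klf7 point lies above 0 for p38KO in AD mice and below 0 for p38KO in WT mice, Klf3 lies below 0 in both comparisons of AD with WT mice, and the bars of Klf4 are the widest and those of Klf3 and Klf6 the narrowest.

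Of 9 other family members on a list, 6 were in the tables and 4 were tested. Klf11, a SIN3A-binding relative of Klf10, was the highest at 9.78 to 22.0 CPM, Klf16 was at 2.77 to 13.8 CPM, and Klf9 and Klf15 averaged 1.75 and 2.62 CPM. Klf1 and Klf5, the erythroid and intestinal factors, were listed at 0 in 10 and 14 of 16 libraries. None of the 4 passed in any comparison, and their log2 differences in AD against WT mice over both genotypes were 0.19 (SE 0.19) for Klf11, -0.13 (SE 0.25) for Klf16, -0.21 (SE 0.34) for Klf9 and -0.17 (SE 0.41) for Klf15. The related Sp factors, which share the zinc fingers and the GC box, were represented by Sp1 to Sp4, and none of these 4 passed either. In AD against WT mice Sp1 differed by -0.32 (SE 0.12, limma adjusted p = 0.274) and Sp4 by -0.63 (SE 0.24, limma adjusted p = 0.295). Sp4 in AD p38KO mice was at 7.29, 20.5, 21.4 and 6.43 CPM, with the same low pair, mice 1 and 4, as Klf12, and its log2 difference from AD p38+/+ was -0.23 with all mice and 0.54 without them.

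The partners and regulators of the family were measured with few calls. Of 11 corepressors and coactivators (Ctbp1, Ctbp2, Sin3a, Ep300 and others) all 11 were tested and none passed in any comparison. Of 7 ubiquitin ligases known to act on KLF proteins (Wwp1, Fbxw7, Itch and others) none of 7 passed either. The ERK5-MEF2 route, which induces Klf2 and Klf4 in endothelial cells, had 7 of 8 genes tested, and 1 changed: Mef2a, a MADS-box activator, fell in AD against WT mice over both p38 genotypes. Mef2a was at 663, 689, 805 and 721 CPM in AD p38KO and 692, 746, 678 and 729 CPM in AD p38+/+ mice, against 906, 889.6, 854 and 860.3 CPM in WT p38KO and 869, 1033, 848 and 828 CPM in WT p38+/+ mice. All 8 AD mice were below all 8 WT mice, which restates the comparison that called Mef2a. In that comparison 1.03% of all genes passed. The log2 difference was -0.31 (SE 0.06, limma adjusted p = 0.0109), and the adjusted p was 0.0699 when AD p38KO mice 1 and 4 were left out. The median over the 7 genes of the route was -0.22, beside -0.03 over all genes.

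Of 15 genes known as KLF targets in other cells, 11 were in the tables and 8 were tested, with 1 call. Lgals3, which encodes galectin-3 and is repressed by KLF3 in other mouse cells, rose in AD against WT mice over both p38 genotypes, by 1.29 on the log2 scale (SE 0.24, limma adjusted p = 0.00984). It was at 18.4, 5.89, 6.76 and 6.16 CPM in AD p38KO and 10.6, 10.2, 11.4 and 6.17 CPM in AD p38+/+ mice, against 4.47, 3.90, 2.59 and 4.01 CPM in WT p38KO and 2.46, 3.41, 2.13 and 4.18 CPM in WT p38+/+ mice. No AD mouse overlapped a WT mouse, which restates the comparison that called Lgals3, where 1.03% of all genes passed. S1pr1, a KLF2 target in lymphocytes, differed by 0.32 (SE 0.09, limma adjusted p = 0.139) and Cdkn1a, a target of KLF4 and KLF6, by 0.61 (SE 0.20, limma adjusted p = 0.192) in the same comparison. The median over the 8 tested targets was 0.28, beside -0.03 over all genes, with 5 differences positive and 3 negative. The targets given with values here were all positive. Group means of Smad7 and Cdkn1b were lower in AD than in WT mice on either p38 genotype, and those of Eng had no common direction. The list was not split by whether a KLF activates or represses the target, so its median gives no direction of KLF action. Galectin-3 is also a gene of activated microglia, and a relation between Lgals3 and Klf3 was not tested.

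Klf2, Klf4, Klf6 and Klf10 are immediate early genes that cell dissociation can induce, so 23 such genes were taken as a list, of which 22 were tested. Egr2, an early zinc finger factor, rose in AD against WT mice over both genotypes, by 2.10 on the log2 scale (SE 0.38, limma adjusted p = 0.00669). Egr2 averaged 18.5 ± 4.32 CPM in AD p38KO and 9.42 ± 5.61 CPM in AD p38+/+, against 4.02 ± 2.65 CPM in WT p38KO and 2.16 ± 1.72 CPM in WT p38+/+ mice (SD, n = 4 each). The other 21 did not pass in this comparison, where 1.03% of all genes did, and the list's median was -0.11, beside -0.03 over all genes. The sum over the list was 2301 ± 99.4 CPM in AD p38KO, 2562 ± 219 CPM in AD p38+/+, 2617 ± 217 CPM in WT p38KO and 2742 ± 594 CPM in WT p38+/+ mice. For AD p38KO the two-sided exact permutation p was 0.0286 both against AD p38+/+ and against WT p38KO mice, the smallest that 4 against 4 mice allow. At 0.203 after adjustment over 64 tests, neither comparison passed.

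**Figure D5:**
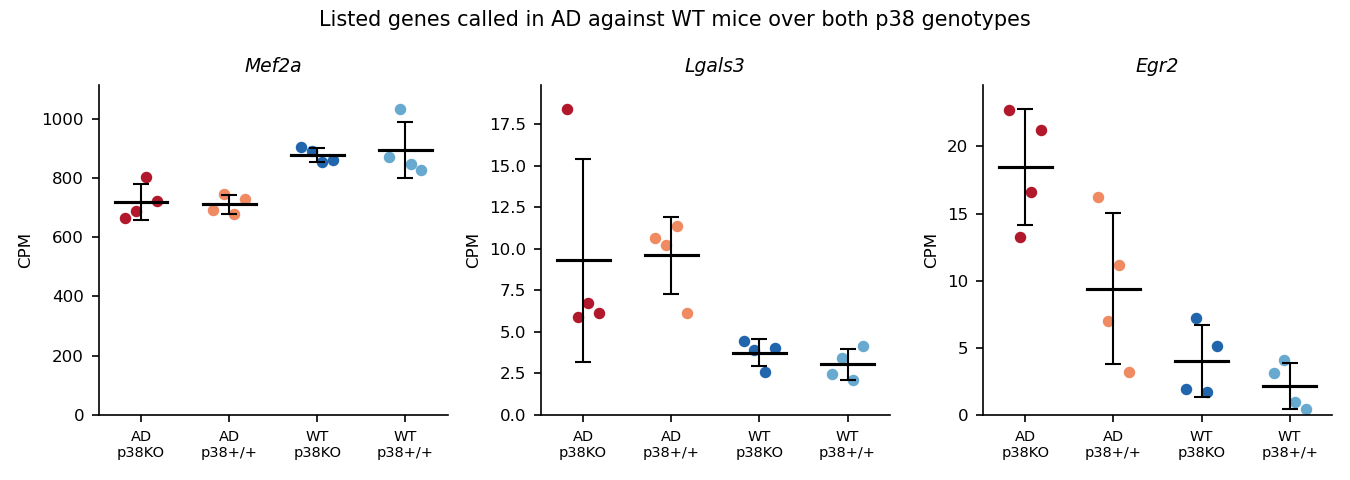
Level in CPM of Mef2a, Lgals3 and Egr2 in each mouse, by group, with a bar at the mean and whiskers of 1 SD (n = 4 mice each). All AD points of Mef2a lie below, and all AD points of Lgals3 above, the WT points, while for Egr2 2 AD p38+/+ mice lie within the range of the WT mice.

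Across the 16 mice, 8 correlations with this summed early gene level were computed. The largest was for Klf4, with Pearson's r = 0.66 (permutation p = 0.00513, adjusted 0.0410) and Spearman's rho = 0.58 (permutation p = 0.0201, adjusted 0.161), and r = 0.82 without the 2 mice farthest from the median. Klf4 averaged under 1 CPM in every group. Klf6 followed with r = 0.56 (permutation p = 0.0224, adjusted 0.0897; rho = 0.41, permutation p = 0.116, adjusted 0.335), which was 0.32 without the farthest 2 mice. For Klf7 r was -0.02 and rho -0.09. Among the 28 pairs of members no correlation passed, the smallest adjusted permutation p being 0.297, for Klf2 with Klf10 (r = 0.57, rho = 0.56) and for Klf4 with Klf12 (r = 0.55, rho = 0.43).

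The genes whose levels over the 16 mice were most like those of Klf7, among 8673 averaging at least 10 CPM, were Prkcd (r = 0.82, rho = 0.74), Phf14 (r = 0.81, rho = 0.81), Zdhhc17 (r = 0.81, rho = 0.69), Hrh2 (r = 0.80, rho = 0.66) and Slc4a7 (r = 0.78, rho = 0.71). Prkcd encodes protein kinase C delta and Hrh2 a histamine receptor. Phf14, a PHD finger gene, averaged 29.5 CPM in AD p38KO, 20.8 CPM in AD p38+/+, 25.7 CPM in WT p38KO and 30.4 CPM in WT p38+/+ mice. The most opposite were Lsm4 (r = -0.81, rho = -0.76) and Cox5b (r = -0.80, rho = -0.74), genes of RNA processing and of respiration. These are the extremes of many genes over mice that share groups and libraries, and are given as a description.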

How the data were processed

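RNA of 16 sorted microglia libraries (4 mice in each of 4 groups, by the labels) was aligned by the authors with STAR to mm10 and quantified in Partek Flow (version 10.0.22.0828) against Ensembl transcripts; whether counting used strand is not given in the sources used here. The authors deposited CPM (read counts scaled to library size) per gene and per transcript, with 0.0001 added. Reads could not be recovered as whole numbers (74.6% to 81.1% of low values came out whole within 0.05 reads), so no count test was run. The 13912 genes and 34323 transcripts that reached 1 CPM in 4 or more libraries were tested with limma (version 3.58.1, R 4.3.3) as log2(CPM + 0.5), in 1 fit over all libraries with a trend in the variance and Benjamini-Hochberg adjustment over all features, called at 0.05. Fold changes on this scale understate those of low genes. The test was tested on simulated data. The 8 members and all gene lists were chosen with earlier results of these data known. All members are named; of list genes, those called are described with values, and further relatives and targets were chosen after their values were seen. Positions and transcripts are from GENCODE for GRCm38, promoters from RefSeq GRCm38.p6. Replicates are separate mice. Alternatives were other pseudocounts, filters, scalings and weights, sex as labelled, a replicate block and leaving out mice.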

Additional observations from a re-analysis of the deposited data

Results flagged for a closer look

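In 4 of the 32 sets of 4 mice looked at (8 members in 4 groups), 1 mouse lay far from the other 3 by Dixon's ratio of gap to range. Chance gives about 1 such set in 20. Klf2 in WT p38KO mouse 1 was at 17.7 CPM, with the other WT p38KO mice at 10.4 to 10.7 CPM. Klf10 in WT p38+/+ mouse 1 was at 42.1 CPM, with the others at 17.0 to 20.4 CPM. Klf12 was low in WT p38KO mouse 2, at 18.1 CPM with the others at 26.8 to 28.3 CPM. It was high in WT p38+/+ mouse 2, at 47.2 CPM with the others at 18.8 to 22.5 CPM. Klf7 had no such mouse in any group.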

How the results depend on the processing

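With Klf7 counted in every comparison, the count of members past the threshold was 0 in all 7 comparisons and stayed 0 under most alternatives. In AD p38+/+ against WT p38+/+ mice it became 1 under quantile scaling, under array weights and with AD p38KO mice 1 and 4 left out together, and ranged from 0 to 1 when each mouse was left out in turn. The member was Klf7 each time, in a contrast that chose it. In AD against WT mice over both p38 genotypes it ranged from 0 to 1 in turn, the 1 being Klf3 without AD p38KO mouse 3. No called value changed sign. Lgals3 and Egr2 were called under all 28 settings of that comparison, and Mef2a under 27. Deviations of same-numbered mice correlated at -0.13 to 0.18 over 24 pairs, 2 of them over 0.1, so the numbers were not taken as a pairing. Even so, 9 of 16 libraries were closest to one of their own number, where chance gives 4. Mouse 1 was labelled female and mice 3 and 4 male in every group, so number and labelled sex cannot be fully told apart. With a replicate block the count of members was 0 in every comparison and that of all genes 49 in AD p38+/+ against WT p38+/+ and 131 for AD over both. Counts of all genes ranged over the alternatives from 2 to 10 (main 7) for AD p38KO against AD p38+/+, 1 to 3 (main 1) for WT p38KO against WT p38+/+, 25 to 72 (main 50) for AD p38+/+ against WT p38+/+, 20 to 68 (main 45) for AD p38KO against WT p38KO, 6 to 16 (main 11) for p38KO over both backgrounds, 95 to 202 (main 143) for AD over both genotypes and 0 to 4 (main 0) for the difference between p38KO effects. The difference between the p38KO effects for Klf4 was -0.19 as reported and 0.54 under quantile scaling. Transcript shares and list sums were not recomputed with single mice left out. With 4 mice a group, and 3 reads at about 0.2 CPM, Klf4 is limited by depth, and Klf2, Klf10 and Klf12 by the spread between mice.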
